A study of Mus musculus with 8 samples.

Results

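Myt1l, Mbd5, Chd8, Ehmt1, Adnp, Pogz, Tcf4 and Foxp1 encode nuclear proteins that read chromatin or control transcription, and variants of each have been linked to autism or intellectual disability in people. Their transcripts were measured in hippocampal RNA of the mouse strains BTBR and B6 by one-color Agilent microarrays, with 1 mouse per array and 4 mice per strain. All probes named for one of these 8 genes, of 27373 names on the array, were taken, which gave 23 of the 41174 non-control probes. Of the 23, 19 were bright enough to be tested, among 27981 tested probes in all, and 4 were not. The control group was wild type C57BL/6J (B6), and the other group was the inbred strain BTBR T+ Itpr3tf/J (BTBR). All mice were males of 5 months and received no drug, and the tissue was the whole hippocampus. A label of the BTBR samples lists C57BL/6J as their background, whereas title, source and genotype all name BTBR. BTBR and B6 are separate inbred lines that differ across the genome, so that a difference belongs to the strain as a whole and not to 1 known mutation. In bulk tissue, fewer cells of a type and less RNA per cell cannot be told apart.

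These proteins work at different steps. Myt1l is a zinc finger repressor of non-neuronal genes that recruits Sin3 and histone deacetylases, Tcf4 is a helix-loop-helix factor that binds DNA in pairs with proneural factors, and Foxp1 is a forkhead repressor that is abundant in striatal and CA1 neurons. Mbd5 carries a methyl-CpG-binding-type domain and associates with a histone deubiquitinase complex, Chd8 is an ATP-dependent remodeler, and Ehmt1 methylates histone H3 at lysine 9. Adnp and Pogz are zinc finger proteins that associate with heterochromatin protein 1. Background of this kind describes the proteins and not these samples.

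Several gene names had more than 1 probe, and each probe reads a separate stretch of 60 bases. The positions below are those the files list, on mouse build mm9. The first 30 bases of the probes on which the results turn are given here as listed in the files, 5′ to 3′ on the sense strand, because probes of Myt1l gave opposite differences. Capitals mark stop triplets (TAA, TAG or TGA) in any reading frame.
Myt1l A_52_P499453, chr12:30469938-30469997: gttctcacttattttTGAgaagtcaagttg
Myt1l A_51_P326892, chr12:30605446-30605505: agtgttatgctacaagagttcaTAAtggtt
Myt1l A_52_P32345, chr12:30606649-30606708: acTAAaTAGactgcggcacttttttgcttt
Myt1l A_51_P113518, chr12:30607574-30607633: agagTAATAGgTAGtatcagtttggattct
Mbd5 A_51_P332185, chr2:49174688-49174747: ccttgtgtcatgTAAtggacttgtgtttgt
Over its whole 60 bases, A_52_P32345 had 0 reading frames free of a stop triplet, and each of the other 4 probes had 1. A gene annotation of build mm9 was not used here, so that exon, intron or UTR was not assigned to any probe. Sequence differences of BTBR beneath the probes were not tested.

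BTBR differed from B6 at 4 of the 19 tested probes, and these belonged to Myt1l and Mbd5 alone among the 8 genes. A probe was called by limma at an adjusted p under 0.05, with adjustment over all tested probes. One of the 4 was higher in BTBR and 3 were lower. The same rule called 7.61% of all tested probes, with 3.31% higher and 4.3% lower in BTBR. The arrays of the strains did not overlap at the same 4 member probes, as was so for 14.2% of all tested probes. Within slide 1, 5 of the 19 were called beside 8.65% of all probes, and within slide 2, 2 beside 3.7%, where each slide held 2 mice of each strain. The rank product, the test named in the study's methods, called 3 of the 19 at a percentage of false prediction of 0.05 or less, beside 3.93% of all probes. At the other 15 member probes the difference lay between -0.26 and 0.36 on the log2 scale, with adjusted p-values of 0.154 to 0.962. For scale, the median absolute difference over all tested probes was 0.10 and the median SD within a strain was 0.13 (log2). The labels number mice within a strain, and p-values measure the spread between these mice.

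**Figure D1:**
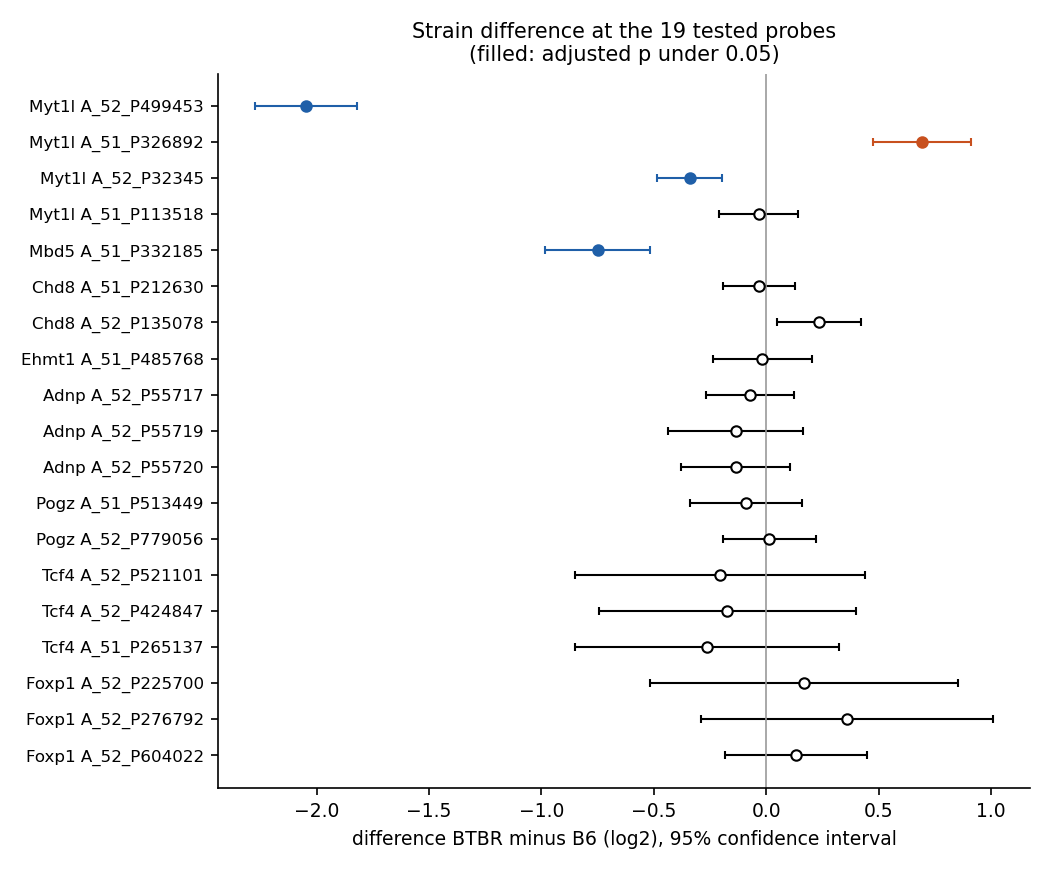
Difference in normalised intensity (log2, BTBR minus B6, horizontal axis) at the 19 tested probes of the 8 genes, with bars for the 95% confidence interval from limma (4 mice per strain) and filled points for an adjusted p under 0.05. The filled points are 3 probes of Myt1l and 1 of Mbd5, and the intervals of Tcf4 and Foxp1 are wide.

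Myt1l gave the largest difference of the 8 genes, and it gave differences in both directions. The probe A_52_P499453 fell in BTBR to 24.2% of its B6 intensity, A_51_P326892 rose 1.62-fold, A_52_P32345 fell to 79.0%, and A_51_P113518 was not called. The size of the first depended on the signal used: 13.2% was left with the processed signal of the scanner software (-2.92 on the log2 scale) and 30.7% in the deposited matrix (-1.71). Among the 6673 gene names with at least 2 tested probes, 13.8% had a called probe and 0.974% had called probes in both directions. Of the 8 genes only Myt1l did.

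A_52_P499453, which the array names after the cDNA AK012660, read 10.88, 10.38, 10.60 and 10.55 in B6 mice 1 to 4 (log2 intensity). In BTBR mice 1 to 4 it read 8.58, 8.55, 8.59 and 8.50. The lowest B6 mouse lay 1.79 above the highest BTBR mouse, and the BTBR mice were nearly alike. The means were 10.60 ± 0.21 and 8.56 ± 0.04 (SD, n = 4), a difference of -2.05 (SE 0.10, 95% interval -2.27 to -1.82, limma adjusted p = 2.83e-06). The exact permutation test gave p = 0.0286 (two-sided), the smallest that 4 against 4 mice allow. The probe ranked 89 among the 27981 tested by the size of its difference. The difference was -2.07 between the mice of slide 1 and -2.03 between those of slide 2.

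A_51_P326892, on the transcript NM_008666, lies 135508 bases downstream of that probe and went the other way. It read 13.34, 13.35, 13.23 and 13.31 in B6 and 13.75, 13.99, 14.21 and 14.05 in BTBR. Every BTBR mouse was above every B6 mouse, with a gap of 0.40. The difference was 0.69 (SE 0.10, 95% interval 0.47 to 0.91, limma adjusted p = 0.00203), with 0.52 within slide 1 and 0.86 within slide 2.

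The last 2 probes lie on the transcript NM_001093775, with their starts 925 bases apart on the genome and also on the transcript. The first of them, A_52_P32345, lies 1203 bases downstream of A_51_P326892 and read between 12.90 and 13.03 in the 4 B6 mice, against 12.52, 12.62, 12.69 and 12.68 in BTBR. The strains did not overlap, but the gap of 0.21 was the smallest among the called probes. The difference was -0.34 (SE 0.06, 95% interval -0.48 to -0.20, limma adjusted p = 0.0111). Within slide 1 it was -0.39 (adjusted p = 0.0389) and within slide 2 -0.29 (adjusted p = 0.181). The call was also lost with the processed signal (limma adjusted p = 0.0726) and with the replicate number as a block (limma adjusted p = 0.0523). The last probe, A_51_P113518, read 12.96, 13.03, 12.88 and 12.90 in B6 and 12.73, 12.94, 12.97 and 13.01 in BTBR, and the strains overlapped. Its difference was -0.03 (95% interval -0.21 to 0.14, limma adjusted p = 0.870).

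**Figure D2:**
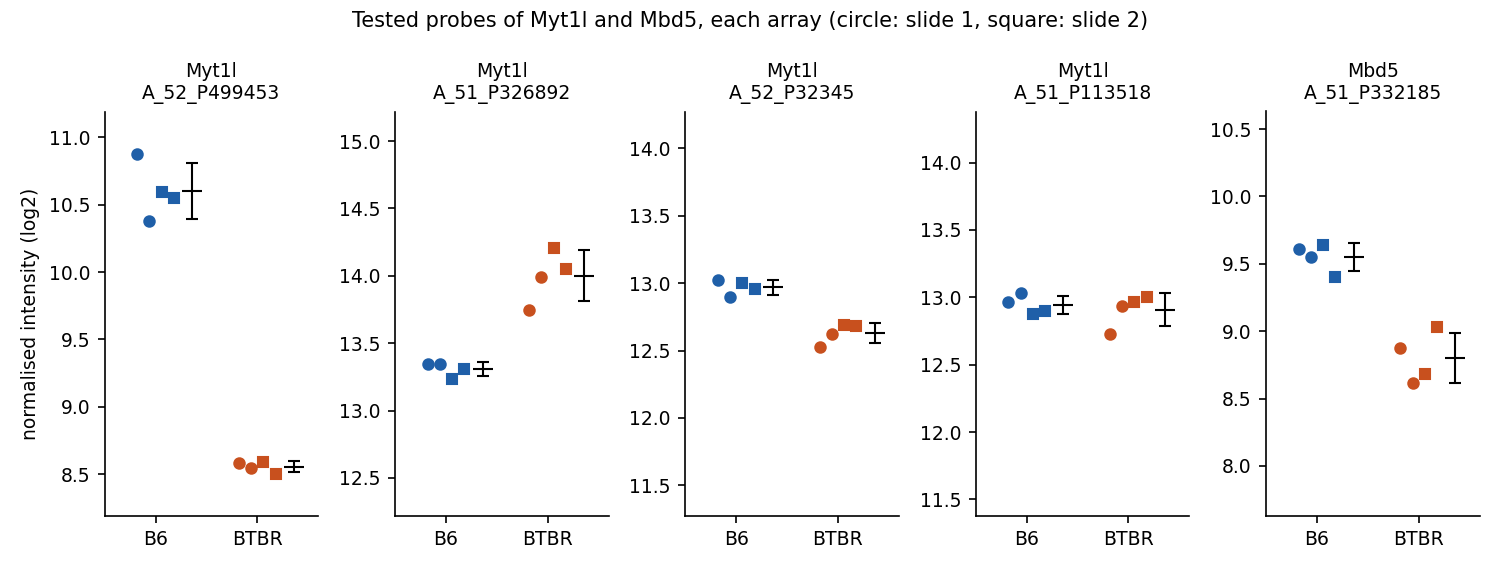
Normalised intensity (log2, vertical axis, the same span of 3 units in each panel) of each mouse at the 4 tested probes of Myt1l and the tested probe of Mbd5, with circles for slide 1, squares for slide 2 and the mean ± SD of each strain (n = 4) beside the points. The strains are apart at 4 of the probes, BTBR is above B6 at A_51_P326892 only, and the strains overlap at A_51_P113518.

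Whether probes of 1 gene differ in their strain difference was tested directly, by limma on the log2 difference between 2 probes of a gene in each mouse. Over all gene names this called 1174 of 13526 pairs (8.68%). For Myt1l all 6 of 6 pairs were called. These pairs are formed from 4 probes and several include A_52_P499453, so that they are not independent of each other. The pair furthest apart, A_52_P499453 and A_51_P326892, differed by -2.74 (SE 0.13, 95% interval -3.03 to -2.45, adjusted p = 5.93e-07). A_51_P326892 and A_52_P32345, which are 1203 bases apart, differed by -1.03 (SE 0.08, adjusted p = 2.33e-05). The pair on 1 transcript, A_51_P113518 and A_52_P32345, differed by -0.31 (95% interval -0.48 to -0.13, adjusted p = 0.0370). That last call was near the threshold, and it was lost in 13 of 22 alternative fits with the sign unchanged. Among these, the adjusted p was 0.0617 with the processed signal, 0.0536 with no filter on dim probes and 0.0679 with the replicate block. Without B6 1, 3 or 4, or BTBR 2, 3 or 4, it was 0.0900, 0.117, 0.101, 0.0986, 0.0564 and 0.0985, with differences of -0.31 to -0.28.

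The remaining 2 Myt1l probes lie further upstream and were not tested. A_52_P454025 (AK048225, chr12:30216068-30216127) was well above background in 1 B6 mouse and in 0 BTBR mice. A_52_P639028 (AK049967, chr12:30541974-30542033) was well above background in 2 B6 mice and in 0 BTBR mice. Neither probe was well above background on enough arrays of a strain to be tested, and the strains overlapped, so that no fold is given. The 6 probes together cover 391566 bases.

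**Figure D3:**
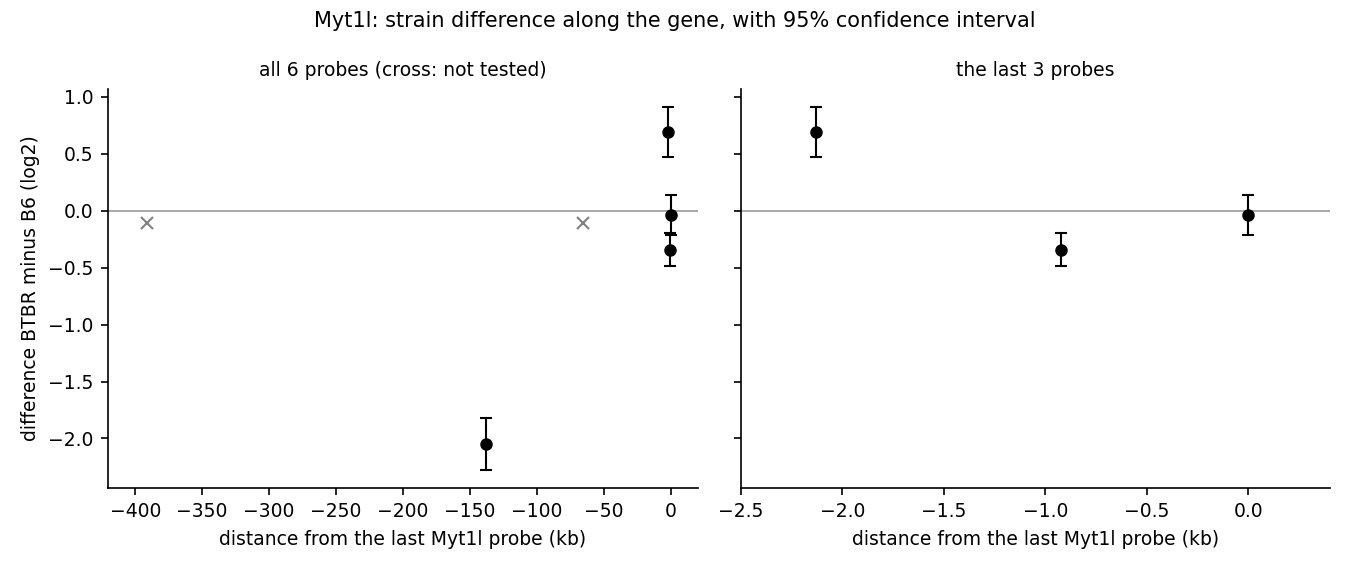
Strain difference at the Myt1l probes (log2, BTBR minus B6, vertical axis) by distance in kb from the start of the last probe, in the direction of transcription, with bars for the 95% confidence interval (limma, 4 mice per strain). The left panel has all 6 probes, with crosses at the measured difference of the 2 untested ones, and the right panel the last 3 probes, which lie within 2128 bases of each other and read 0.69, -0.34 and -0.03.

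A single summary for Myt1l therefore depended on the probes used. By its brightest probe the gene was higher in BTBR by 0.69. By the median of its 4 tested probes the difference was -0.19 and was not called (limma adjusted p = 0.144). Of the 22 tested probes of other genes within 1 Mb of the Myt1l probes, 10 were called (45.5%), 5 in each direction, beside 7.61% over the array. The 22 probes carry 16 names, and Trappc12 and Tmem18 each had more than 1 of the called probes. The 3 probes of other genes whose values over the 8 mice were most like A_52_P499453, after each probe was centered on its own mean, were those of Zfp933, Fam199x and TC1683126. Their root mean square distances from it were 0.101, 0.121 and 0.124 (log2), and their strain differences were -1.89, -1.98 and -2.08. They were picked for likeness over the same mice, so that strain differences near that of A_52_P499453 follow from the choice.

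Mbd5 was lower in BTBR at its tested probe. A_51_P332185, on the cDNA AK021136, read 9.61, 9.55, 9.64 and 9.40 in B6 and 8.88, 8.62, 8.68 and 9.03 in BTBR (log2 intensity). All BTBR mice lay below all B6 mice, with BTBR 4 nearest to them and a gap of 0.37. The means were 9.55 ± 0.11 and 8.80 ± 0.19 (SD, n = 4), a difference of -0.75 (SE 0.10, 95% interval -0.98 to -0.52, limma adjusted p = 0.00187), which left 59.5% of the B6 intensity. Within slide 1 the difference was -0.83 (adjusted p = 0.0207), and within slide 2 it was -0.67 (adjusted p = 0.0718). The other Mbd5 probe, A_52_P422540 (NM_029924, chr2:49172303-49172362), starts 2385 bases upstream and was not well above background in any of the 8 mice, so that no fold can be given for it. The fall thus stands on 1 probe, listed for a cDNA clone and not for the transcript NM_029924. Of the 17 tested probes of other genes within 1 Mb, 1 was called (5.88%).

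Chd8 had 2 probes and neither was called. A_51_P212630 (NM_201637, chr14:52818160-52818219, minus strand) read 14.21, 14.18, 14.20 and 14.17 in B6 and 14.02, 14.20, 14.29 and 14.12 in BTBR. The B6 mice lay within the range of the BTBR mice, and the difference was -0.03 (95% interval -0.19 to 0.13, limma adjusted p = 0.867). A_52_P135078 (ENSMUST00000147309, chr14:52820363-52820422) read 10.26, 10.11, 10.10 and 9.97 in B6 and 10.48, 10.27, 10.38 and 10.25 in BTBR. Only B6 1 and BTBR 4 overlapped there, by less than 0.01. The difference of 0.24 (95% interval 0.05 to 0.42) did not pass (limma adjusted p = 0.154, exact permutation p = 0.0571, two-sided). The 2 probes were not shown to differ from each other after adjustment (0.27, 95% interval 0.04 to 0.50, limma adjusted p = 0.200). For that pair the exact permutation test gave p = 0.0286 (two-sided), the smallest that 4 against 4 mice allow.

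Ehmt1, the H3K9 methyltransferase, had 1 probe, A_51_P485768 (NM_172545, chr2:24646322-24646381, minus strand). It read 12.26, 12.00, 12.19 and 12.28 in B6 and 12.00, 12.07, 12.31 and 12.28 in BTBR. The strains covered nearly the same range, and the difference was -0.02 (95% interval -0.24 to 0.20, limma adjusted p = 0.953).

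Adnp had 3 probes on the transcript NM_009628 (chr2, minus strand), within 309 bases, and none was called. Their differences were -0.07, -0.14 and -0.14 for A_52_P55717, A_52_P55719 and A_52_P55720, and the strains overlapped at each. The limma adjusted p-values ran from 0.582 to 0.738, and the 95% intervals together reached from -0.44 to 0.16. No pair of the 3 was called, and the pairs differed by at most 0.07 (adjusted p of at least 0.844). A_52_P55717, the brightest, read 10.65, 10.79, 10.62 and 10.74 in B6 and 10.51, 10.48, 10.73 and 10.78 in BTBR, so that BTBR 1 and 2 were the lowest of the 8 mice.

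Pogz had 3 probes on the transcript NM_172683 (chr3, plus strand), and 2 were tested. A_51_P513449 read 9.71, 9.68, 9.57 and 9.99 in B6 and 9.46, 9.79, 9.59 and 9.76 in BTBR, a difference of -0.09 (95% interval -0.34 to 0.16, limma adjusted p = 0.738). A_52_P779056, 2622 bases downstream, read 8.08, 8.12, 8.34 and 8.45 in B6 and 8.23, 8.24, 8.23 and 8.33 in BTBR, a difference of 0.01 (95% interval -0.19 to 0.22, limma adjusted p = 0.962). The strains overlapped at both, and B6 spread more than BTBR at the second. The middle probe, A_52_P74619, was well above background in 1 mouse of each strain and was not tested.

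Tcf4 was not called at any of its 3 probes (chr18, plus strand), and its BTBR mice were split into pairs. A_51_P265137 read 14.99, 14.89, 14.97 and 15.25 in B6, and 14.20, 14.30, 15.14 and 15.39 in BTBR. BTBR 1 and 2 lay below every B6 mouse, while BTBR 3 and 4 lay among or above them. The same split of the BTBR mice was seen at A_52_P424847 (14.87, 14.65, 15.61 and 15.74) and at A_52_P521101 (9.19, 8.93, 10.24 and 10.05), which spans 54577 bases of the genome and so crosses at least 1 intron. The strain differences were -0.26, -0.17 and -0.20 (limma adjusted p = 0.670, 0.787 and 0.776), and their 95% intervals together reached from -0.85 to 0.44. The 3 probes were not shown to differ from each other, with pairs at most 0.09 apart (adjusted p of at least 0.792).

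BTBR 1 and 2 were on slide 1 and BTBR 3 and 4 on slide 2. Between the mice of slide 1 the difference in Tcf4 was -0.69, -0.52 and -0.65 at A_51_P265137, A_52_P424847 and A_52_P521101, and between those of slide 2 it was 0.16, 0.18 and 0.24. Within slide 1 alone, A_51_P265137 passed (adjusted p = 0.0230). The change of the strain difference from slide to slide was itself not called (unadjusted p = 0.00232, 0.0309 and 0.00782, limma adjusted p = 0.403, 0.487 and 0.433).

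Markers of hippocampal neurons (Prox1, C1ql2, Wfs1, Fibcd1, Zbtb20, Neurod6 and Bok, all 7 tested) moved with Tcf4 by their mean. That mean, centered on the 8 mice, was 0.44, -0.14, 0.27 and 0.62 in B6 1 to 4 and -0.78, -1.12, 0.43 and 0.27 in BTBR 1 to 4 (log2). Tcf4 at A_51_P265137, centered likewise, was 0.10, 0.00, 0.07 and 0.35 in B6 and -0.69, -0.59, 0.25 and 0.50 in BTBR. Both were lowest in BTBR 1 and 2. Singly, C1ql2, Fibcd1, Zbtb20 and Neurod6 were lowest in these mice, and Prox1, Bok and Wfs1 were not. Wfs1 was at -0.21, 0.25, 0.98 and 0.39 in BTBR 1 to 4 and between -0.48 and -0.17 in B6. Within BTBR alone, Wfs1 and Prox1 were lower in mice 1 and 2 than in mice 3 and 4, and Bok was not. Markers of other tissue parted the same BTBR mice: the centered mean was 1.12, 1.06, -0.86 and -0.70 in BTBR 1 to 4 for the choroid plexus, and 0.31, 0.49, -0.16 and -0.47 for oligodendrocytes. The thalamus markers stood at 2.19 in BTBR 1 and at 0.15, -0.30 and -0.29 in BTBR 2 to 4, and the striatal markers at 0.43, 2.41, -0.68 and -0.97. In B6 the thalamus mean lay between -0.58 and -0.17, and in B6 1 to 4 the choroid plexus and oligodendrocyte means were -0.42, 0.47, 0.49 and -1.16, and 0.07, -0.11, -0.08 and -0.05. None of the 7 hippocampal markers was called between the strains, and the part of these lists in the Tcf4 values was not tested. Without BTBR 1 and 2 the strain difference at the 3 probes was 0.24, 0.28 and 0.34 (limma adjusted p of 0.308 to 0.462), with the opposite sign.

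Foxp1 (chr6, minus strand) was likewise not called at any of its 3 probes, and 1 mouse stood high. A_52_P225700 read 13.29, 13.86, 13.42 and 13.35 in B6 and 13.56, 14.62, 13.29 and 13.12 in BTBR. BTBR 2 was the highest of all mice and B6 2 the highest of its strain, and both were so at A_52_P276792 and A_52_P604022 too, where BTBR 2 read 14.33 and 9.18. The differences were 0.17, 0.36 and 0.13 (limma adjusted p = 0.832, 0.584 and 0.695), with 95% intervals that together reached from -0.52 to 1.01. No pair of the 3 was called (adjusted p of at least 0.376).

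Markers of the striatum (Drd1a, Drd2, Adora2a, Rgs9 and Ppp1r1b, all 5 tested) moved with Foxp1 by their mean. Their centered mean was -0.61, 0.94, -0.85 and -0.68 in B6 1 to 4 and 0.43, 2.41, -0.68 and -0.97 in BTBR 1 to 4 (log2). Foxp1 at A_52_P225700, centered likewise, was 0.29 in B6 2 and 1.06 in BTBR 2, and between -0.44 and 0.00 in the other 6 mice. The high mice were thus B6 2 and BTBR 2 for both, while BTBR 1, at 0.43 for the markers, was at 0.00 for this probe. At the other 2 Foxp1 probes BTBR 1 lay slightly above B6 2, with 0.19 against 0.16 at A_52_P276792 and 0.06 against 0.04 at A_52_P604022. Of the 5 markers, Adora2a did not follow, with 0.40 in B6 1, 0.01 in B6 2 and 0.41 in BTBR 2. None of the 5 markers was called between the strains, and their part in the Foxp1 values was not tested. Without B6 2 and BTBR 2 the differences at the 3 Foxp1 probes were -0.03, 0.18 and 0.03 (limma adjusted p of 0.730 to 0.950). Without BTBR 2 alone they were -0.16, 0.07 and -0.01. Between the mice of slide 1 they were 0.52, 0.82 and 0.34, and between those of slide 2 -0.18, -0.10 and -0.08. This change from slide to slide was not called (limma adjusted p = 0.603, 0.529 and 0.548).

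**Figure D4:**
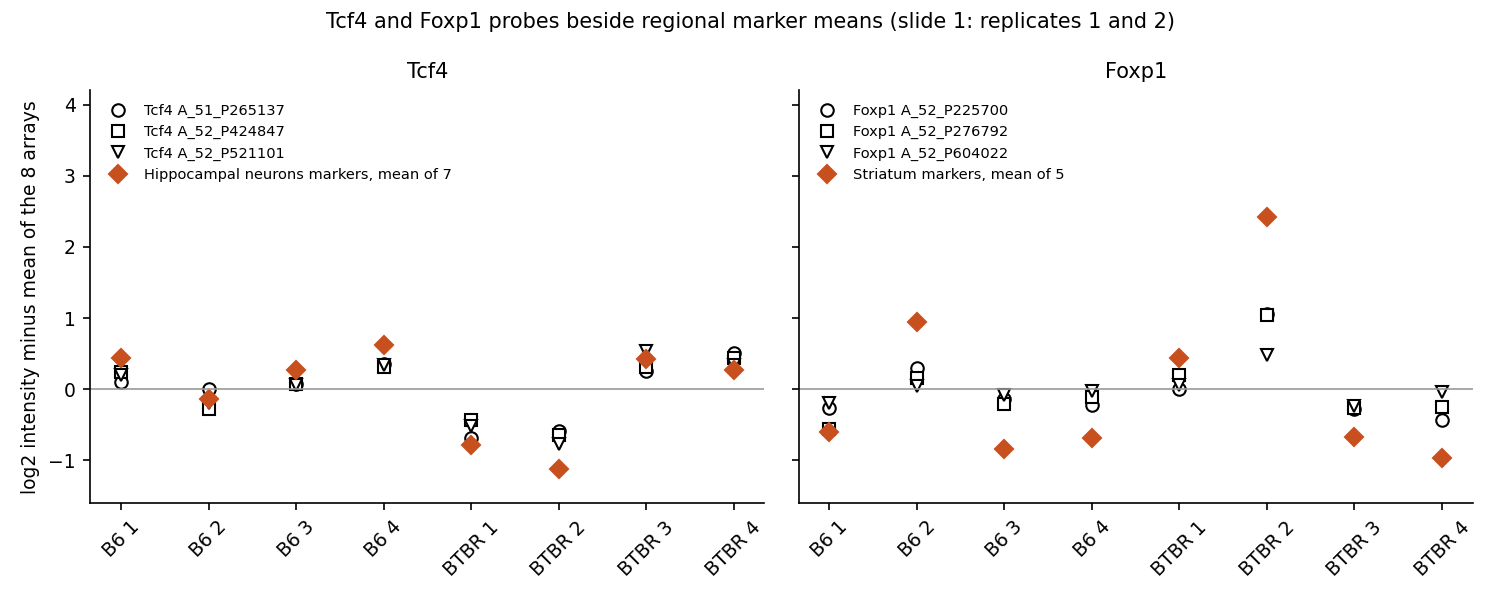
Log2 intensity of each Tcf4 probe (left) and Foxp1 probe (right) minus its mean over the 8 mice (vertical axis), by mouse (horizontal axis), with diamonds for the mean of 7 markers of hippocampal neurons (left) and 5 of the striatum (right). Tcf4 and the hippocampal markers are lowest in BTBR 1 and 2, and Foxp1 and the striatal markers are highest in BTBR 2.

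The 4 called probes of Myt1l and Mbd5 were tested again without the same mice. Without BTBR 1 and 2, A_52_P499453 differed by -2.06, A_51_P326892 by 0.82 and the Mbd5 probe by -0.70, and these 3 passed (limma adjusted p = 0.000175, 0.00126 and 0.0163). Without B6 2 and BTBR 2 they differed by -2.12, 0.71 and -0.69, and again passed (adjusted p = 9.25e-05, 0.0247 and 0.0214). The fourth, A_52_P32345, lost its call both times, with -0.28 (adjusted p = 0.0739) and -0.36 (adjusted p = 0.0593).

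Genes that work with these 8 proteins, and 48 other autism-linked genes listed for that link alone, were counted by their brightest tested probe, a rule that called 7.82% of all 18398 gene names (3.49% higher and 4.33% lower in BTBR). Of the 119 tested genes of all lists, 1 was higher and 7 were lower in BTBR (6.72%). Their median difference was -0.01 (log2), beside 0.01 over all gene names. Of 74 of these genes that had at least 2 tested probes and were not called by this rule, 6 had another probe that was called (8.11%), near the 410 of 6160 gene names of the same kind over the array (6.66%). The 6 are named here after their values were seen, and the brightest probe of each differed by -0.03 to 0.16.

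None of the 9 other CHD remodelers was called, with differences of -0.14 to 0.13. Among 14 tested methyl-CpG-binding proteins and partners of the Mbd5-associated deubiquitinase, Kdm1b, a lysine demethylase, was lower by a difference of -0.43 (SE 0.07, limma adjusted p = 0.00425). No other probe of its array name was tested, so that this call stands on 1 probe. The count in this group was 0 within slide 1, within slide 2 and by the rank product. Among 19 genes of H3K9 methylation and heterochromatin protein 1, 3 were lower. Cbx3, which encodes heterochromatin protein 1 gamma, differed by -0.33 (limma adjusted p = 0.0451), Adnp2, a relative of Adnp, by -0.33 (adjusted p = 0.0432), and Psip1, a chromatin reader that does not itself methylate H3K9, by -0.35 (adjusted p = 0.0135). The other tested probes of these 3 genes were not called and differed by -0.10 for Cbx3, 0.07 for Adnp2, and 0.04 and -0.08 for Psip1. Cbx5, which encodes heterochromatin protein 1 alpha and was not counted, differed by -0.0049 at its brightest probe and by -0.39 (limma adjusted p = 0.0102) and -0.42 (adjusted p = 0.00485) at 2 others. Asxl1, a partner in the deubiquitinase complex, likewise differed by -0.02 at its brightest probe and by -0.32 (adjusted p = 0.0169) and -0.68 (adjusted p = 0.000315) at 2 others. The count of 3 in the H3K9 group was 0 with the replicate block, within slide 2, by the rank product and with either pair of mice above left out. It was 1 under median centering and under the processed signal, 1 without B6 1, B6 3, B6 4, BTBR 1 or BTBR 2, 0 without B6 2, 2 without BTBR 3 and 4 without BTBR 4.

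Among 10 tested helix-loop-helix partners of Tcf4, Id4, an inhibitor of such factors, was lower by a difference of -1.13 (SE 0.25, limma adjusted p = 0.0242). Its B6 mean was 13.16 ± 0.09 and its BTBR mean 12.04 ± 0.58 (SD, n = 4), and its other probe differed by -1.04 (adjusted p = 0.246). Id2, another such inhibitor, was not counted and differed by -0.57 at 1 of its other probes (adjusted p = 0.0138). The count in this group was 0 without any 1 of the B6 mice and without BTBR 4. Among 19 tested corepressors and relatives of Myt1l and Foxp1, Sin3b, the scaffold of a deacetylase complex, was lower by a difference of -0.44 at its brightest probe (adjusted p = 0.0208), while its other probe differed by 0.03 (adjusted p = 0.883). The probe named Hdac1, A_51_P507380, was higher by 1.36 (SE 0.13, limma adjusted p = 0.000261). The files place that probe on chromosome 17, where RefSeq lists the pseudogene Hdac1-ps, and RefSeq lists Hdac1 on chromosome 4, so that which of the copies it reads is uncertain. Rbbp4, a histone-binding subunit of deacetylase complexes, and Gatad2a, a subunit of the NuRD complex, were not counted, and each had 1 other probe that was called, with -0.93 (adjusted p = 0.000108) for Rbbp4 and 0.41 (adjusted p = 0.0295) for Gatad2a. The count of 2 in this group was 1 without B6 1, B6 2 or BTBR 4, and also with the processed signal, with the replicate block, within slide 2 and with either pair of mice left out.

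Of 48 other autism-linked chromatin and transcription genes, Zmynd11, a reader of methylated histone H3.3, was called lower, by a difference of -1.22 (SE 0.15, limma adjusted p = 0.000941). It was 12.72 ± 0.06 in B6 and 11.50 ± 0.33 in BTBR (SD, n = 4). No other probe of that name was tested, so that this call stands on 1 probe. The other 47 were not called by their brightest probe. Among them Med13, a subunit of the Mediator kinase module, differed by 0.11 at that probe and by -1.13 at 1 of its other probes (adjusted p = 0.000222). Without B6 2 the count was 2.

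Probes of genes near the members differed in how many were called, and a gene could have more than 1 probe. Beside Myt1l, the share within 1 Mb was high for Tcf4, with 7 of 16 probes of 12 names (43.8%). It was 14.3% for Chd8, 13.9% for Pogz, 5.88% for Adnp, 3.23% for Ehmt1 and 0 of 8 probes for Foxp1. Neighboring genes share their stretch of chromosome, and no test was made of these shares.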

How the data were processed

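Hippocampal RNA of 4 BTBR and 4 B6 mice was labeled with Cy3 and hybridized to Agilent 4x44K arrays, 1 mouse per array. The deposited intensity files hold, for each spot, its mean intensity, the median of the local background, flags and the software's own background-corrected, detrended signal. None was scaled between arrays by the authors, and the file headers give Feature Extraction 10.7.3.1 (9.1 in the submitters' processing notes). A deposited matrix of log2 values, which the authors quantile normalized with Agi4x44PreProcess, served as an alternative.

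From the deposited intensities, the background was subtracted, values under 0.5 were set to 0.5, 50 was added, log2 was taken and the 8 arrays were quantile normalized. Control spots and spots with an outlier flag were left out, which removed 154 probes, and the median of replicate spots was taken. A probe was tested when well above background on at least 75% of the arrays of 1 strain. Of all probes, 57.4% to 72.3% per array were well above background, and no array had saturated spots. The number of arrays limits the precision. Strains were compared in R 4.3.3 with limma 3.58.1 (strain alone, Benjamini-Hochberg over all tested probes) and by exact permutation, since the rank product that the study's methods name gives no standard error. It was run as an alternative. Probe pairs were tested the same way over all pairs. The scripts were tested on simulated data. Quantile normalization forces 1 distribution on all arrays, so that values are relative to the other probes.

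Members and gene lists were chosen with earlier results of these data known. Named were all members, at most 3 called genes of each list, and the 3 probes most like the member probe with the largest limma statistic. Outside this rule, 6 uncalled list genes with another called probe were named after their values were seen. RefSeq names and chromosomes come from assembly GRCm38.p6, and only chromosome names were used. The alternatives were other signals, scalings, filters, limma options, the slide or replicate number as a block, each slide alone, and arrays left out. One marker gene of the chosen lists is not reported here and entered no value. The marker lists also covered other cell types: 1 of 5 neuronal markers was lower in BTBR, 1 of 5 microglial markers was higher and 1 lower, and none of the markers of astrocytes, oligodendrocytes, thalamus, choroid plexus, meninges or endothelium was called.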

Additional observations from a re-analysis of the deposited data

Results flagged for a closer look

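At the Pogz probe A_52_P779056, BTBR 4 stood apart from the other BTBR mice: it read 8.33 while they read 8.23, 8.24 and 8.23 (log2), and its gap to the nearest was 0.919 of the range of the 4, above Dixon's 95% critical value for 4 values. It was the only one among 38 groups of 4 checked (19 probes in 2 strains), and chance sets about 1 in 20 groups apart.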

How the results depend on the processing

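The differences at the Myt1l probes A_52_P499453 and A_51_P326892 kept their direction and passed in all 22 alternative fits, with ranges of -2.92 to -1.71 and 0.52 to 0.86 (log2). Mbd5 passed in 21 of 22 (-1.09 to -0.59), and failed within slide 2. A_52_P32345 of Myt1l passed in 17 of 22 (-0.39 to -0.28), and failed with the processed signal (adjusted p = 0.0726), the replicate block, slide 2 and both pairs of arrays left out. By the median of its probes, the Myt1l difference was -0.19 in place of 0.69 and was not called. The cause of these changes was not tested. Over all single probes and pairs, 790 settings gave 703 with the same direction and call, and 67 sign changes of uncalled values.

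The count of 4 member probes was 2 within slide 2, and 4 without each single mouse. The count of 6 pairs was 10 with no filter on dim probes, a count over more pairs in which 5 of the 6 were still called. Without single mice it was 5 to 6 pairs. For H3K9 methylation (3 in the main analysis), the count was 1 with the processed signal, median centering, no filter on dim probes or the median over probes, 0 with the replicate block, within slide 2, with the rank product and with either pair of arrays left out, and 0 to 4 without single mice. For corepressors (2), it was 1 with the processed signal, the replicate block, within slide 2 and either pair left out, and 1 to 2 without single mice. For methyl-CpG-binding proteins (1), it was 0 within slide 1, within slide 2 and with the rank product, and 2 with the median over probes. For helix-loop-helix partners (1), it was 3 within slide 1, 0 with the median over probes, and 0 to 1 without single mice. For the other autism-linked genes (1), it was 2 with the processed signal, the slide block, within slide 1 and the median over probes, and 1 to 2 without single mice. The choice to leave out these 2 pairs of arrays (BTBR 1 and 2, and B6 2 and BTBR 2) was made after seeing the data.

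Deviations of mice with the same replicate number correlated at -0.14, 0.51, -0.10 and 0.39, so the numbers were not taken to pair the mice. With the replicate block, 3 member probes and 5 pairs were called, and the adjusted p of A_52_P32345 was 0.0523. With 4 mice per strain the intervals are wide at several probes that were not called, and probes near background give no fold.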
